A study of Arabidopsis thaliana with 15 samples.

Results

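The 9 genes described here encode the seed storage proteins of Arabidopsis thaliana, and they were taken by name: the cruciferins CRA1 (AT5G44120), CRU2 (AT1G03880) and CRC (AT4G28520), the albumins SESA1 (AT4G27140), SESA2 (AT4G27150), SESA3 (AT4G27160), SESA4 (AT4G27170) and SESA5 (AT5G54740), and PAP85 (AT3G22640), a protein of the vicilin type. They are 9 of the 32548 genes in the deposited table, and all 9 were among the 25085 genes tested, those with a mean of at least 1 normalised read in at least 1 group. RNA came from whole seedlings grown on plates for 11 days, in 15 libraries that form 5 groups of 3, all in the Col-0 ecotype and with no treatment. Col-0_1 and Col-0_2 are sets of wild-type seedlings. The group wrky-qm is homozygous mutant (wrky7-/-, wrky11-/-, wrky17-/-, wrky21-/- and wrky39-/-) for 5 genes of WRKY transcription factors. The group wrky-qm_15_hz carries the same 5 homozygous mutations and is also heterozygous for WRKY15 (wrky15+/-). The group obe1-2 is the double mutant obe1-/- obe2-/-, in genes that encode OBERON proteins with a PHD finger. The series title places these WRKY proteins in a complex with PHD proteins that represses stress genes. The labels give no allele names, do not tie a wild-type set to a mutant, and do not say whether the 3 libraries of a group came from separate cultures. The p-values therefore rest on a replicate spread that may be only technical.

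Seed storage proteins are made in the maturing embryo, packed into protein storage vacuoles, and broken down after germination to feed the seedling. Cruciferins are globulins of the 12S class, the albumins belong to the 2S class, and vicilin-type globulins form the 7S class. Their genes are switched on in the embryo by the B3-domain factors ABI3, FUS3 and LEC2, which bind RY elements, together with bZIP factors that bind G-boxes and related ABA response elements. After germination the genes are kept silent in vegetative tissue by chromatin and B3-domain repressors.

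The sequences just upstream of 4 members are shown because they hold the letters that the B3-domain activators are known to bind. Each line gives the 250 bases before the annotated gene start, read 5′ to 3′ on the gene's own strand from RefSeq assembly TAIR10.1. Capitals mark every match to the RY element CATGCA on either strand. CRA1 lies on the minus strand (chr5:17758337-17758586 for the stretch shown), CRC on the plus strand (chr4:14087306-14087555), SESA3 on the plus strand (chr4:13611546-13611795) and PAP85 on the minus strand (chr3:8013942-8014191).
CRA1: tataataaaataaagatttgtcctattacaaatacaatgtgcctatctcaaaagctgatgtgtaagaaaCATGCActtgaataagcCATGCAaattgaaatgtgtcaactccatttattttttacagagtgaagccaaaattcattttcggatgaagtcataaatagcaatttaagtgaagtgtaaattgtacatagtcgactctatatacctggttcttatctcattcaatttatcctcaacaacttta
CRC: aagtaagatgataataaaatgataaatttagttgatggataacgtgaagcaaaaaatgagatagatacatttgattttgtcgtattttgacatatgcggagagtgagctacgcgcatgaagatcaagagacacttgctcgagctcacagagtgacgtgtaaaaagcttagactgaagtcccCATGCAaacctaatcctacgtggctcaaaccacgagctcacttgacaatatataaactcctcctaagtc
SESA3: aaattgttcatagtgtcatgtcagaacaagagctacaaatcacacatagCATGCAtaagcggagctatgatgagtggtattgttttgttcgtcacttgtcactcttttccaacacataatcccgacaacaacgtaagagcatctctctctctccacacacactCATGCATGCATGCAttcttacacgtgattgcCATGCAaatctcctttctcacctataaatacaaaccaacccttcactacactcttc
PAP85: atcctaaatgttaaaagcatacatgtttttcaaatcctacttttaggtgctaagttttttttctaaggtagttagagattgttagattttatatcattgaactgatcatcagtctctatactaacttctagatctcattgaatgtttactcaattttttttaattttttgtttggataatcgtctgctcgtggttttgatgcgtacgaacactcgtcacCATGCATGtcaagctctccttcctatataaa

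The RY element was present in each of the 8 members whose upstream stretch is described, against 8.43% of the 27443 upstream stretches of the same length in the annotation. At least 2 matches were present in 7 of these 8, against 1.66% of all stretches. SESA3 held 7 matches, of which the 5 that begin between positions -87 and -79 overlap each other, counting the base before the gene start as -1. SESA4 held 6 matches, some of which overlap. The 2 matches of PAP85 begin at -31 and -29 and overlap each other. Overlapping matches were counted separately in all stretches. The G-box CACGTG was found in all 5 albumins and in none of CRA1, CRC and PAP85, against 6.49% of all stretches. The ABRE core ACGTG, which every G-box contains, was found in 6 of these 8 members against 22.9%, and CRC was the member that held it without a G-box. The W-box core TTGAC, the letters that WRKY proteins are known to bind, was found in 5 of these 8 members against 44.9% of all stretches. All motifs were searched on both strands. These matches describe the letters in the window and do not show binding.

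**Figure D1:**
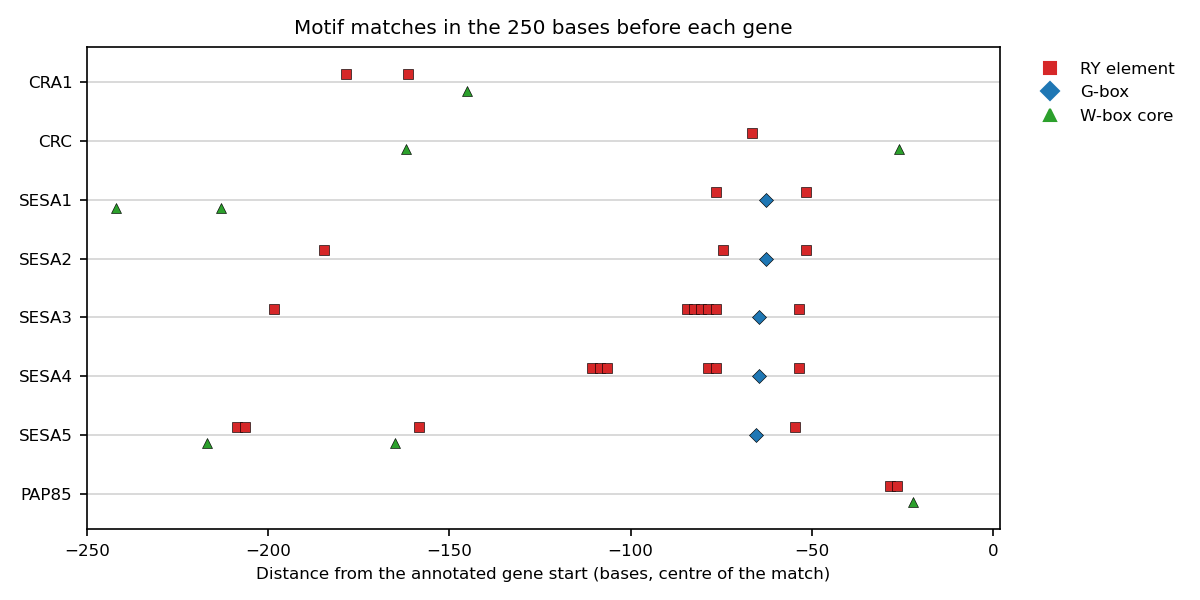
Positions of motif matches (x axis, bases from the annotated gene start, centre of the match) in the upstream stretch of 8 of the genes (y axis). Squares are RY elements, diamonds G-boxes and triangles W-box cores. In the 5 albumins a G-box sits close to the gene with an RY element on its gene-proximal side, and CRA1, CRC and PAP85 show RY elements without a G-box.

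In each of the 5 albumins the G-box was followed by an RY element after a spacer of 5 bases on the same strand. This arrangement was written down after the matches had been seen. It occurred in 9 of the 27443 stretches, or 0.0328%, and these were the 5 albumins, AT2G28490, which encodes a cupin of the globulin superfamily, AT1G54860, AT2G38610 and PSB28. AT2G28490 had means of 3.11 ± 3.96 and 35.97 ± 10.4 normalised reads (SD, n = 3) in Col-0_1 and Col-0_2, 194 ± 31.9 in wrky-qm and 1015 ± 91.6 in wrky-qm_15_hz, with 16.2 ± 11.1 in obe1-2. AT1G54860 was listed at 0 in both wild-type sets and in obe1-2, and stood at 5.85 ± 2.06 in wrky-qm and 34.1 ± 8.64 in wrky-qm_15_hz. AT2G38610 and PSB28 were read at more than 1000 in every group and did not share this pattern, with means of 1063 ± 7.06 and 4758 ± 159.9 in Col-0_1.

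SESA1 to SESA4 stand in a row on the plus strand of chromosome 4, from base 13607329 at the start of SESA1 to base 13614283 at the end of SESA4, with gaps of 1309, 1720 and 1032 bases and no annotated gene between them. SESA5 lies alone on chromosome 5, and each albumin gene has 1 exon. The cruciferin genes have 4 exons each and PAP85 has 5. Coding sequences of SESA1 to SESA4 were 80.6% to 89.7% identical, with SESA2 and SESA3 the closest pair, whereas SESA5 was 60.7% to 61.3% identical to them. CRA1 and CRU2 were 73.6% identical, CRA1 and CRC 58.5%. No stretch of 50 bases of any member's transcript occurred in the transcript of another gene, so reads of that length and above are not shared exactly between members, although the authors' handling of mismatched reads is not given in the sources used here.

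The libraries held 44049300 to 49935000 normalised reads each, and genes of 1000 or more had a median coefficient of variation of 3.63% to 4.76% between replicates. The values have the form of adjusted read counts and are called normalised reads here, although no source used here names their unit. OBE1 stood at 11.1 ± 4.66 normalised reads in obe1-2 against 2194 ± 161 and 2546 ± 109 in the wild-type sets, and OBE2 at 1811 ± 75.8 against 3813 ± 111 and 4279 ± 128. WRKY17 and WRKY39 were lower in both WRKY mutants than in both wild-type sets. Transcripts of WRKY7, WRKY11 and WRKY15 were higher there, so those 3 genes do not check the labels against wild type. WRKY15 is labelled mutant in wrky-qm_15_hz only. Its libraries held 2577 to 2713 normalised reads there and 2977 to 3211 in wrky-qm. WRKY21 was lower in wrky-qm (-0.62 ± 0.07 on the log2 scale, limma, adjusted p = 1.55e-06) and was not called in wrky-qm_15_hz (-0.11 ± 0.07, adjusted p = 0.304), although both groups are labelled homozygous mutant for it. The 5 leaf markers, among them RBCS1A at 466546 in Col-0_1, and the root markers were present. All 5 leaf markers fell in wrky-qm_15_hz and in obe1-2. Their summed level was 623804 to 695356 in wrky-qm_15_hz and 389920 to 420220 in obe1-2, against 1116680 to 1387380 in the wild-type libraries, and their part in the results below was not tested. Root markers moved too. In wrky-qm CASP2, PRP3 and SCR fell, in wrky-qm_15_hz CASP1 (-1.97), CASP2 (-2.20) and PRP3 (-1.60) fell and SCR rose, and in obe1-2 CASP1 and PRP3 (-5.96) fell and SCR rose, by limma on the log2 scale. The 4 root markers summed to 4363 to 4947 normalised reads in wild-type libraries, 3313 to 3359 in wrky-qm, 2660 to 2913 in wrky-qm_15_hz and 3496 to 3748 in obe1-2, and their part was not tested either. In RNA of whole seedlings a change in the number of cells that express a gene and a change in RNA per cell cannot be told apart. Zeros are stored as very small positive numbers in Col-0_1 and wrky-qm and as exact zeros in the other 3 groups. The labels name no batch. If that form marks libraries handled apart, it and the genotypes compared across it cannot be told apart.

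Seed storage transcripts were at or near 0 in wild-type seedlings, except CRA1 and, in Col-0_2, CRC. CRA1, the 12S globulin usually called cruciferin A, had 17.1, 23.3 and 13.5 normalised reads in the 3 Col-0_1 libraries. In Col-0_2 it had 409.5, 351 and 312. The wild-type sets therefore did not overlap for CRA1. CRC, cruciferin C, was listed at 0 in all Col-0_1 libraries and read at 52.9, 43.7 and 36.8 in Col-0_2. These were the 2 members called higher in Col-0_2 than in Col-0_1, where 13.7% of all genes tested were called higher. CRA1 differed by 4.27 ± 0.19 on the log2 scale (SE, limma, adjusted p = 3.76e-13), and for CRC, with Col-0_1 listed at 0, limma gave an adjusted p of 5.15e-11. The other 7 members had at most 5.67 normalised reads in any wild-type library, and SESA2 and SESA3 were listed at 0 in all 6. Because the labels tie no wild-type set to a mutant, each mutant was set against both. A gene was called only where it moved the same way from both sets.

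The mutants differed in how many members rose. In wrky-qm 8 of the 9 members were higher than in both wild-type sets and none was called lower, where 15.5% of all genes tested were called higher and 11.4% lower. After quantile normalisation the genome-wide split in wrky-qm turned from 3886 higher and 2857 lower to 3292 higher and 4480 lower, while the members' count stayed at 8. In wrky-qm_15_hz all 9 members were higher, where 26.5% of all genes were called higher and 27.4% lower. In obe1-2 only 4 were higher and 1 lower, where 29.2% of all genes were called higher and 32.5% lower. The member called lower was SESA4, which was listed at 0 in wrky-qm too and had the same estimate there. The median difference over the 9 members was 5.50 for wrky-qm, 10.67 for wrky-qm_15_hz and 0.55 for obe1-2 on the log2(normalised reads + 1) scale, beside 0, -0.04 and -0.08 over all genes tested. Members listed at 0 in wild type enter these medians through the added 1, so they describe the scale used and are not fold changes. The mutants share their wild-type controls. Against the wild-type set stored in the same form, 8 members were higher in wrky-qm than in Col-0_1, where 22% of all genes were, and 1, SESA4, was lower, where 18.4% were. In the same way 9 were higher in wrky-qm_15_hz than in Col-0_2, where 29.9% were. For obe1-2, 6 members were higher and 1 lower than in Col-0_1, with 33.2% of all genes higher and 37.6% lower. Against Col-0_2, 4 were higher and 3 lower, with 32.2% and 36.1% of all genes.

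**Figure D2:**
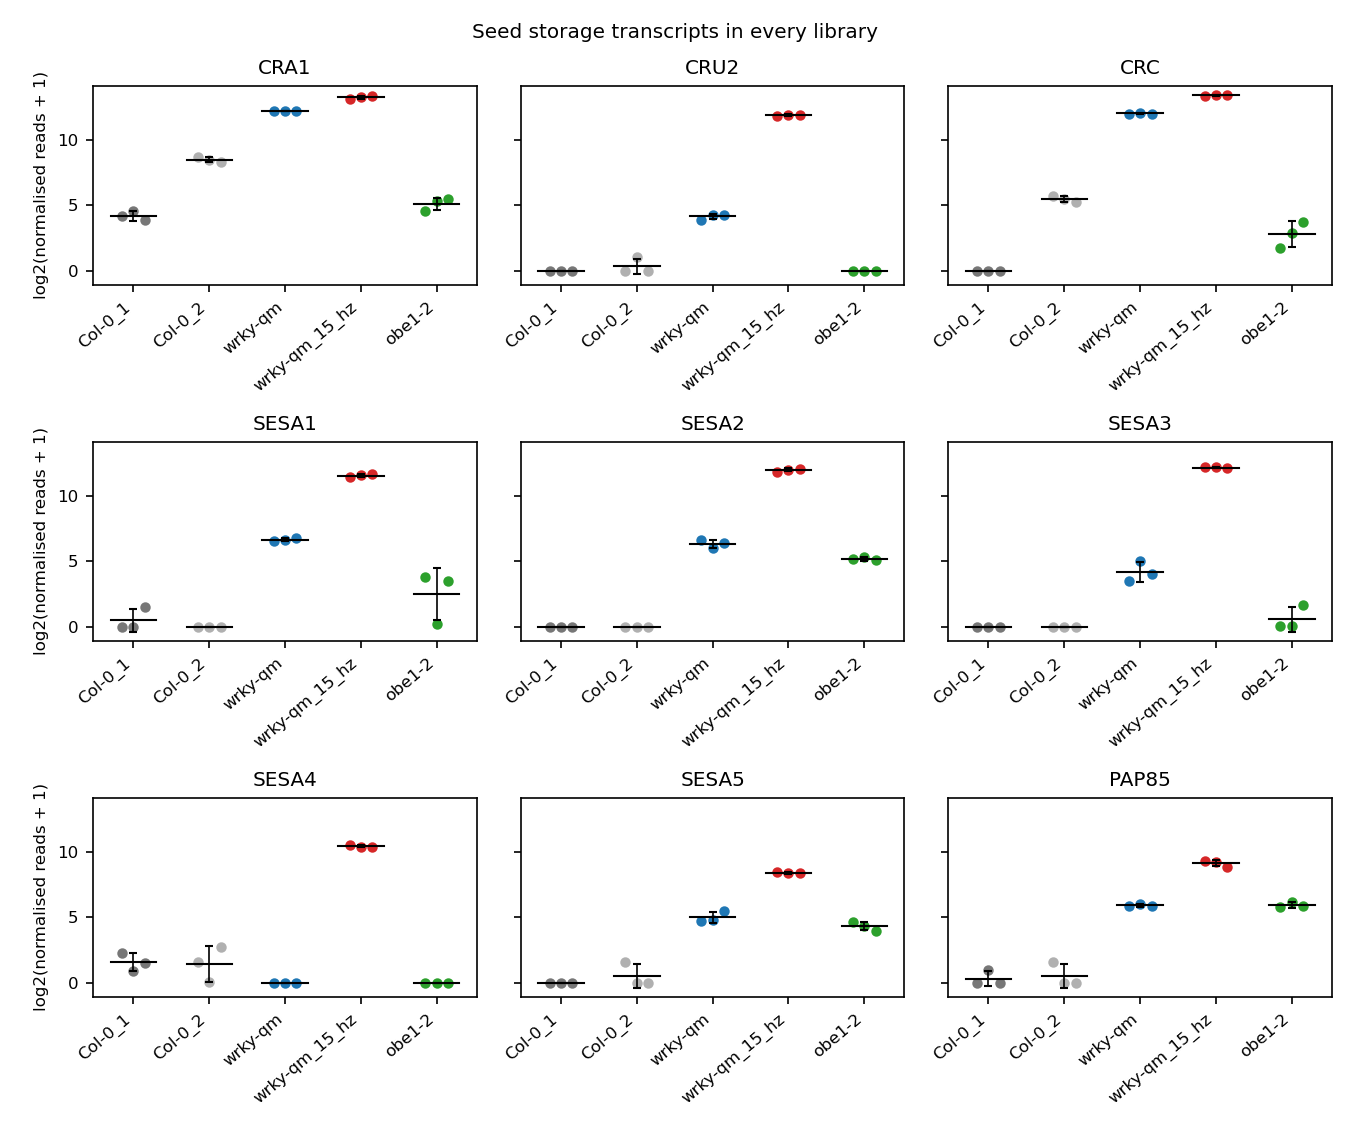
Each panel is 1 seed storage gene, with log2(normalised reads + 1) on the y axis and the 5 groups on the x axis. Points are the 3 libraries of a group and the bar is their mean ± SD on that scale. Every gene is highest in wrky-qm_15_hz, while SESA4 is listed at 0 in wrky-qm and obe1-2.

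CRA1 had 4660, 4876 and 4813 normalised reads in the 3 wrky-qm libraries. In wrky-qm_15_hz it had 9168, 10029 and 10566. Both groups lay far above all 6 wild-type libraries and did not overlap each other. Against Col-0_2, the higher wild-type set, CRA1 was 13.4-fold higher in wrky-qm (3.75 ± 0.19 on the log2 scale) and 27.8-fold higher in wrky-qm_15_hz (4.80 ± 0.19). Against the mean of both sets the differences were 5.88 ± 0.16 and 6.93 ± 0.16. The larger of the p-values against each set gave an adjusted p of 6.70e-13 and 3.31e-15 (limma). In obe1-2 CRA1 had 23.0, 39.1 and 43.2 normalised reads. These libraries lay above or within the range of Col-0_1 and below every Col-0_2 library. The difference was 0.91 ± 0.19 against Col-0_1 (limma, adjusted p = 1.67e-04) and -3.35 ± 0.19 against Col-0_2 (adjusted p = 7.42e-13), so CRA1 was not called in obe1-2.

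CRC followed CRA1 in the WRKY mutants. It had 4120, 4292 and 4156 normalised reads in wrky-qm and 10663, 11073 and 11013 in wrky-qm_15_hz. The 2 groups did not overlap, and both lay far above the wild-type libraries. Against Col-0_2 CRC was 93.1-fold higher in wrky-qm and 242-fold higher in wrky-qm_15_hz (limma against both sets, adjusted p = 6.69e-13 and 8.47e-15). Among all 25085 genes, CRC ranked first by its log2 difference from the mean of both sets in wrky-qm and 5 in wrky-qm_15_hz. These ranks depend on the added 1, since CRC is listed at 0 in Col-0_1. Against Col-0_2 alone CRC differed by 6.54 in wrky-qm, beside 6.66 for SESA1. In obe1-2 CRC had 2.30, 6.57 and 12.5 normalised reads, above Col-0_1 and below Col-0_2. It was not called, with differences of opposite sign against the 2 sets (-2.69 against Col-0_2, limma adjusted p = 2.19e-07).

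CRU2, cruciferin B, is the cruciferin closest to CRA1 in sequence, and its levels were far from those of CRA1 in wrky-qm. It had 13.9, 18.4 and 18.4 normalised reads in wrky-qm, against 3621, 3949 and 3961 in wrky-qm_15_hz. It was listed at 0 in all obe1-2 and all Col-0_1 libraries and at no more than 1.01 in Col-0_2. CRU2 was called higher in wrky-qm (limma, adjusted p = 2.28e-07) and in wrky-qm_15_hz (adjusted p = 9.18e-16).

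Of the albumins, small sulphur-rich proteins of the 2S class, SESA3 had the highest mean level per kb of coding sequence in wrky-qm_15_hz. It was listed at 0 in the wild-type libraries, had 9.997, 31.5 and 15.4 normalised reads in wrky-qm, and had 4692, 4670 and 4541 in wrky-qm_15_hz. SESA3 ranked first of all genes tested by its log2 difference in wrky-qm_15_hz, where SESA2 ranked 2, CRU2 ranked 3 and SESA1 ranked 4. In obe1-2 SESA3 had 0.013, 0.015 and 2.08 and was not called (limma, adjusted p = 0.370).
SESA2 had 97.4, 64.5 and 83.0 normalised reads in wrky-qm, 3746, 4179 and 4384 in wrky-qm_15_hz, and 34.6, 40.2 and 32.9 in obe1-2. With all 6 wild-type libraries listed at 0, no group overlapped another among the 3 mutants. SESA2 was called higher in wrky-qm (limma, adjusted p = 7.55e-13), in wrky-qm_15_hz (adjusted p = 4.75e-18) and in obe1-2 (adjusted p = 4.02e-12).

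SESA1 had 94.0, 96.0 and 111 normalised reads in wrky-qm and 2775, 3081 and 3259 in wrky-qm_15_hz (limma, adjusted p = 1.51e-07 and 4.38e-12). In obe1-2 it had 12.8, 0.158 and 10.5, so 1 of the 3 libraries lay within the wild-type range of 0 to 1.88. SESA1 was called higher in obe1-2 (limma, adjusted p = 0.0113), but the call ended without obe1-2 replicate 1 (adjusted p = 0.0956) and without replicate 3 (adjusted p = 0.0804). SESA5, the albumin on chromosome 5, was the lowest albumin in wrky-qm_15_hz, with 362, 338 and 329 normalised reads. It had 25.9, 26.6 and 42.6 in wrky-qm and 23.6, 19.6 and 14.9 in obe1-2. All 9 mutant libraries lay above the wild-type range of 0 to 2.00, and SESA5 was called higher in each mutant (limma, adjusted p = 7.62e-08 for wrky-qm, 2.69e-12 for wrky-qm_15_hz and 2.03e-07 for obe1-2).

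SESA4 stood apart from its neighbours on chromosome 4. It was listed at 0 in all wrky-qm and all obe1-2 libraries and had 1497, 1369 and 1359 normalised reads in wrky-qm_15_hz. Wild-type libraries held 3.84, 0.877 and 1.80 in Col-0_1 and 2.00, 0.011 and 5.67 in Col-0_2. The rise in wrky-qm_15_hz passed the test (limma, adjusted p = 1.67e-11). The fall to 0 passed it in obe1-2 (limma, adjusted p = 0.0331). In wrky-qm SESA4 was called lower than each wild-type set taken alone (adjusted p = 0.0345 against Col-0_1 and 0.0478 against Col-0_2, where 19.4% of all genes were lower) and missed the threshold against both together (adjusted p = 0.0700). These values rest on wild-type levels of at most 5.67 normalised reads. The obe1-2 call ended without Col-0_2 replicate 3 (adjusted p = 0.242), without Col-0_1 replicate 1 (0.110), without Col-0_2 replicate 1 (0.0779), and without any single obe1-2 library (0.0617 to 0.0620). Without Col-0_2 replicate 2 SESA4 was called lower in wrky-qm against both sets (adjusted p = 0.0193).

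PAP85, the vicilin-type member, rose in all 3 mutants. It had 57.7, 65.3 and 56.9 normalised reads in wrky-qm, 633, 595 and 464 in wrky-qm_15_hz, and 53.0, 72.7 and 56.2 in obe1-2. Wild-type libraries held no more than 2.00, so no mutant library overlapped them, while wrky-qm and obe1-2 overlapped each other. The differences from the mean of both wild-type sets were 5.50 ± 0.38 in wrky-qm and 8.71 ± 0.38 in wrky-qm_15_hz, with 5.51 ± 0.38 in obe1-2 on the log2(normalised reads + 1) scale. The larger of the p-values against each set gave an adjusted p of 2.05e-09, 3.21e-13 and 4.24e-10 (limma).

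Summed, the 9 transcripts came to 17.2 to 25.1 normalised reads per library in Col-0_1, 355 to 468 in Col-0_2, 9078 to 9469 in wrky-qm and 37158 to 39877 in wrky-qm_15_hz, with 149 to 178 in obe1-2. No group overlapped another in this sum. The pool made up 0.0201% ± 0.000463 of all normalised reads in wrky-qm and 0.0779% ± 0.00240 in wrky-qm_15_hz (SD, n = 3). CRC and CRA1 were at ranks 714 and 804 of 32548 genes by level in wrky-qm_15_hz, and CRA1 and CRC at ranks 1831 and 2190 in wrky-qm. No test was run on the pool.

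The makeup of the pool differed between the mutants. The shares are of reads, not adjusted for gene length, so they are not shares of transcript molecules. Coding sequences are 1368 to 1575 bases long in the cruciferins and 495 to 513 in the albumins. Cruciferins made up 96.8% ± 0.164 of the pool in wrky-qm and 63.6% ± 0.479 in wrky-qm_15_hz, with 25.0% ± 7.72 in obe1-2. Albumins made up 2.51% ± 0.202, 34.9% ± 0.250 and 38.7% ± 7.64. PAP85 alone made up 0.646% ± 0.0397 in wrky-qm and 1.46% ± 0.274 in wrky-qm_15_hz, with 36.3% ± 4.13 in obe1-2. In Col-0_2 CRA1 was 88.0% ± 0.633 of the pool. The ratio of CRA1 to CRC was 8.08 ± 0.379 in Col-0_2, 1.14 ± 0.0145 in wrky-qm and 0.908 ± 0.0499 in wrky-qm_15_hz.

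**Figure D3:**
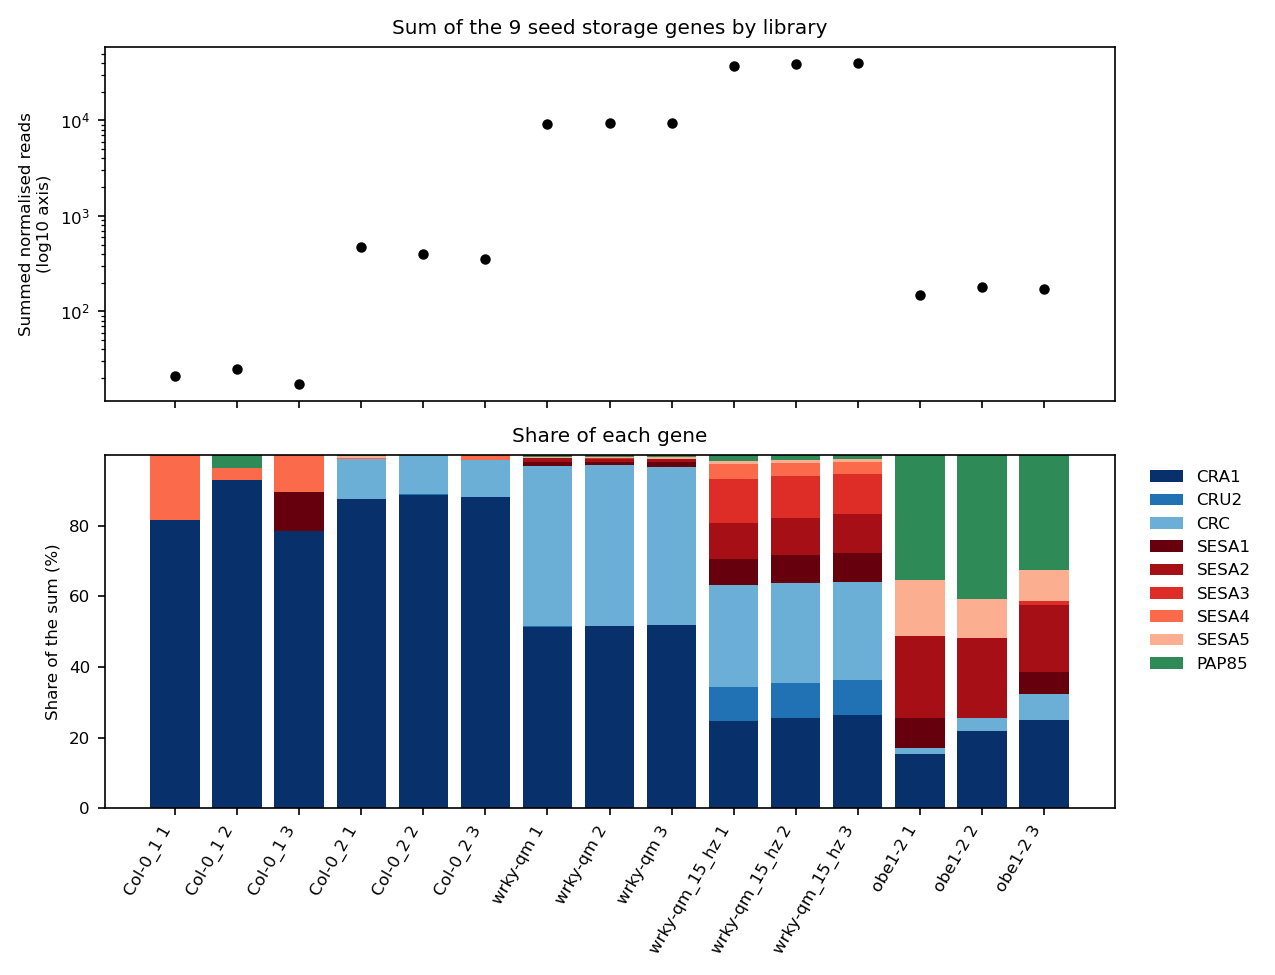
The upper panel gives the summed normalised reads of the 9 genes (log10 axis) in each of the 15 libraries, and the lower panel the share of that sum held by each gene in percent. Shares are of reads and are not adjusted for gene length. In wrky-qm CRA1 and CRC fill nearly the whole bar, in wrky-qm_15_hz the albumins take 34.9% on average, and in obe1-2 PAP85 takes 36.3%.

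Levels were also divided by coding length, which leaves out the untranslated parts of the transcript that reads also cover. The order of the genes below may depend on that divisor. Per kilobase of coding sequence, SESA3 was highest in wrky-qm_15_hz at 9362 ± 164 normalised reads per kb. It was followed by SESA2 at 7998 ± 635, CRA1 at 6992 ± 497, CRC at 6931 ± 140 and SESA1 at 6138 ± 495. Within 1 SD, SESA2 overlapped CRA1 and CRA1 overlapped CRC, whereas SESA3 and SESA1 did not overlap their neighbours in this order. SESA4 at 2811 ± 154 and CRU2 at 2810 ± 141 could not be told apart, and SESA5 at 689 ± 34.5 and PAP85 at 386 ± 60.8 came last. In wrky-qm the order was different, with CRA1 at 3371 ± 78.3 and CRC at 2660 ± 57.5 far above SESA1 at 203 ± 18.9 and SESA2 at 159 ± 32.2. CRU2, at 12.3 ± 1.89, was the lowest member above 0 in wrky-qm. In obe1-2 SESA2 was highest at 69.9 ± 7.47, and PAP85 at 41.5 ± 7.22, SESA5 at 38.9 ± 8.70 and CRA1 at 24.7 ± 7.53 followed. Of these, PAP85 overlapped SESA5 and SESA5 overlapped CRA1 within 1 SD.

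Set directly against wrky-qm, all 9 members were higher in wrky-qm_15_hz, where 29.5% of all genes tested were. The size of the difference varied widely. CRA1 was 2.07-fold higher (1.05 ± 0.19 on the log2 scale, limma, adjusted p = 4.55e-05) and CRC 2.61-fold higher (1.38 ± 0.32, adjusted p = 8.62e-04). PAP85 was 9.20-fold higher (adjusted p = 1.59e-06), SESA5 10.8-fold (adjusted p = 1.08e-06), SESA1 29.99-fold (adjusted p = 1.20e-06) and SESA2 50.3-fold by the same limma test (adjusted p = 1.46e-12). The largest ratios were those of CRU2 at 217-fold (limma, adjusted p = 6.79e-13) and SESA3 at 257-fold (adjusted p = 6.68e-12), while SESA4 was listed at 0 in wrky-qm. The 2 members with the smallest differences were the 2 already highest in wrky-qm.

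This direct comparison crosses the divide in how zeros are stored. When wrky-qm was taken relative to Col-0_1 and wrky-qm_15_hz relative to Col-0_2, the wild-type sets stored in the same form, CRA1 and CRC turned to -3.22 ± 0.26 and -4.11 ± 0.46 on the log2(normalised reads + 1) scale (limma, adjusted p = 1.69e-09 and 1.91e-07). These 2 members are the ones that differ between the wild-type sets, and CRC is listed at 0 in Col-0_1. The other 7 members stayed higher in wrky-qm_15_hz, by between 2.90 ± 0.64 for SESA5 and 10.57 ± 0.81 for SESA4 (limma, adjusted p at most 7.35e-04). This alternative was chosen after the data were seen, and the share of all genes called under it was not counted.

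Between obe1-2 and wrky-qm, 6 members were lower in obe1-2, where 38.9% of all genes tested were, and none was higher, where 31.1% were. CRA1 differed by -7.10 ± 0.19 (limma, adjusted p = 1.68e-18) and CRC by -9.23 ± 0.32 (adjusted p = 2.58e-16), and SESA1, SESA3 and CRU2, which is listed at 0 in obe1-2, were also lower. With each mutant taken relative to the wild-type set stored in the same form, 6 members were again lower. The share of all genes lower in that way was not counted, so this number has no genome-wide share beside it. CRA1 moved to -11.36 ± 0.26 and CRC to -14.72 ± 0.46 (limma, adjusted p = 8.57e-19 and 9.57e-17), with CRC listed at 0 in Col-0_1. SESA2 differed by -1.15 ± 0.32 (limma, adjusted p = 0.00297), and its call ended after quantile normalisation at -0.12 (adjusted p = 0.762), which moved the median of all genes in this comparison from -0.12 to 0.03. PAP85 differed by 0.00 with a 95% interval of -0.90 to 0.91, and SESA5 by -0.67 with an interval of -1.62 to 0.28 (limma, adjusted p = 1 and 0.198). SESA4 was listed at 0 in both groups. Between obe1-2 and wrky-qm_15_hz all 9 members were lower in obe1-2, where 26.1% of all genes were, by between -3.20 ± 0.44 for PAP85 and -11.91 ± 0.42 for CRU2, the latter against a group listed at 0.

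Of 4 further cupins of the seed globulin kind, 3 rose in wrky-qm and 3 in wrky-qm_15_hz, with 1 in obe1-2 and none lower. Beside these, 15.5%, 26.5% and 29.2% of all genes were higher and 11.4%, 27.4% and 32.5% lower. AT1G03890, which neighbours CRU2 by locus number, was listed at 0 in wild type and had a mean of 111.8 ± 17.1 normalised reads in wrky-qm_15_hz (limma, adjusted p = 5.62e-10). AT4G36700 had means of 12.7 ± 5.59 and 37.3 ± 10.1 in Col-0_1 and Col-0_2, 238 ± 23.2 in wrky-qm and 1642 ± 72.3 in wrky-qm_15_hz, with 16848 ± 96.7 in obe1-2. Its mean was highest in obe1-2, whereas those of all 9 members were highest in wrky-qm_15_hz, and it rose in obe1-2 by 9.58 ± 0.18 on the log2 scale (limma, adjusted p = 2.24e-19). AT2G18540 differed from the members in another way, with its highest mean in wrky-qm. It had 19.1 ± 1.38 there and 6.43 ± 4.95 in wrky-qm_15_hz, where it was not called (limma, adjusted p = 0.518). Set directly against wrky-qm, 3 of the 4 cupins were higher in wrky-qm_15_hz and 1 lower, beside 29.5% and 34.9% of all genes.

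Of 18 regulators linked to the seed maturation programme, not all of them activators, 2 were higher and 1 lower in wrky-qm. In wrky-qm_15_hz 4 were higher and 3 lower, and in obe1-2 1 was higher and 5 lower. Over all genes 15.5% were higher and 11.4% lower in wrky-qm, 26.5% and 27.4% in wrky-qm_15_hz, and 29.2% and 32.5% in obe1-2. ABI3, the B3-domain factor of maturation, rose in wrky-qm_15_hz to 74.1 ± 9.30 normalised reads from 3.78 ± 3.85 and 12.6 ± 7.86 in the wild-type sets (3.53 ± 0.53, limma, adjusted p = 9.64e-04), and had 13.55 ± 3.81 in wrky-qm. FUS3 had 71.2 ± 12.2 in wrky-qm_15_hz against 22.9 ± 3.43 and 37.2 ± 2.30 and was called higher there. ABI5, a bZIP factor of abscisic acid response, rose in wrky-qm to 555 ± 36.0 from 137 ± 19.9 and 153 ± 19.7 (1.94 ± 0.14, limma, adjusted p = 1.04e-08) and stood at 163 ± 30.9 in wrky-qm_15_hz. LEC1 and LEC2, early regulators of embryo identity, had group means under 5 everywhere and were not called. BZIP25, whose product binds albumin and cruciferin promoters, rose in all 3 mutants by 0.35 ± 0.04 (wrky-qm), 0.64 ± 0.04 (wrky-qm_15_hz) and 1.01 ± 0.04 (obe1-2) on the log2 scale (limma, adjusted p = 1.35e-06, 2.79e-11 and 5.49e-15). Among the factors that fell were DPBF2, a bZIP factor, in wrky-qm (-4.00 ± 0.45, limma, adjusted p = 6.19e-06) and DOG1, a regulator of dormancy, in wrky-qm_15_hz (-0.81 ± 0.18, adjusted p = 0.0100) and in obe1-2 (-1.13 ± 0.18, adjusted p = 2.58e-04). In obe1-2 EEL, another bZIP factor, fell by 1.58 ± 0.21 (limma, adjusted p = 9.13e-06), and BBM, an AP2-domain factor of embryos, was listed at 0 and called lower (adjusted p = 5.44e-08).

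Of 24 tested repressors of the seed programme, 3 rose and 1 fell in wrky-qm, 6 rose and 3 fell in wrky-qm_15_hz, and 7 rose and 6 fell in obe1-2. The shares that rose were near those over all genes of 15.5%, 26.5% and 29.2%. The shares that fell lay below those over all genes of 11.4%, 27.4% and 32.5%. PKL, a chromatin remodeller that keeps embryo genes silent in seedlings, fell by 0.43 ± 0.05 on the log2 scale in wrky-qm_15_hz and by 0.61 ± 0.05 in obe1-2 (limma, adjusted p = 1.00e-05 and 4.02e-08). HDA6, a histone deacetylase, rose in both of these mutants. Of 7 genes of vacuolar sorting and processing, 1 rose and 1 fell in wrky-qm, 3 rose and 1 fell in wrky-qm_15_hz, and 4 rose and none fell in obe1-2, beside the same shares over all genes. VSR1, the receptor that sorts storage proteins, rose by 0.99 ± 0.03 in wrky-qm_15_hz and by 1.37 ± 0.03 in obe1-2 (limma, adjusted p = 4.45e-15 and 4.94e-18), and BETA-VPE, the seed-type processing enzyme, rose by 0.34 ± 0.06 in wrky-qm and 0.41 ± 0.06 in wrky-qm_15_hz (adjusted p = 0.00112 and 5.56e-05). GAMMA-VPE, the processing enzyme of vegetative tissue, fell by 0.55 ± 0.03 in wrky-qm and by 0.33 ± 0.03 in wrky-qm_15_hz (limma, adjusted p = 2.76e-07 and 0.00994) and rose by 0.36 ± 0.03 in obe1-2 (adjusted p = 0.00178).

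Genes of oil bodies and dry seed moved with the storage genes in the WRKY mutants. Of 19 tested, 15 rose in wrky-qm and 14 in wrky-qm_15_hz with none lower, and 1 rose and 1 fell in obe1-2. Over all genes 15.5%, 26.5% and 29.2% rose in these mutants and 11.4%, 27.4% and 32.5% fell. Their summed level was 215 to 240 normalised reads in Col-0_1, 307 to 381 in Col-0_2, 2871 to 3076 in wrky-qm and 5225 to 6020 in wrky-qm_15_hz, with 463 to 533 in obe1-2. The WRKY mutants differed within this list, with 9 genes higher and 6 lower in wrky-qm_15_hz, beside 29.5% higher and 34.9% lower over all genes. OLEO1, an oleosin that coats oil bodies, was higher by 2.89 and ATS1, a caleosin of oil bodies, by 4.45, whereas the late embryogenesis genes EM1 and AT3G17520 were lower by 3.80 and 2.73 on the log2 scale. AT3G17520 had 929 ± 40.6 normalised reads in wrky-qm and 142 ± 29.8 in wrky-qm_15_hz. In this direct comparison OLEO1 and ATS1 thus differed in the direction of the storage genes, and these late embryogenesis genes in the opposite one. It too crosses the divide in how zeros are stored. Against wild-type sets stored in the same form, OLEO1 rose by 6.88 in wrky-qm (Col-0_1) and 7.04 in wrky-qm_15_hz (Col-0_2). ATS1 rose by 3.46 and 7.92 in the same way. Differences between such values were not tested for this list.

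**Figure D4:**
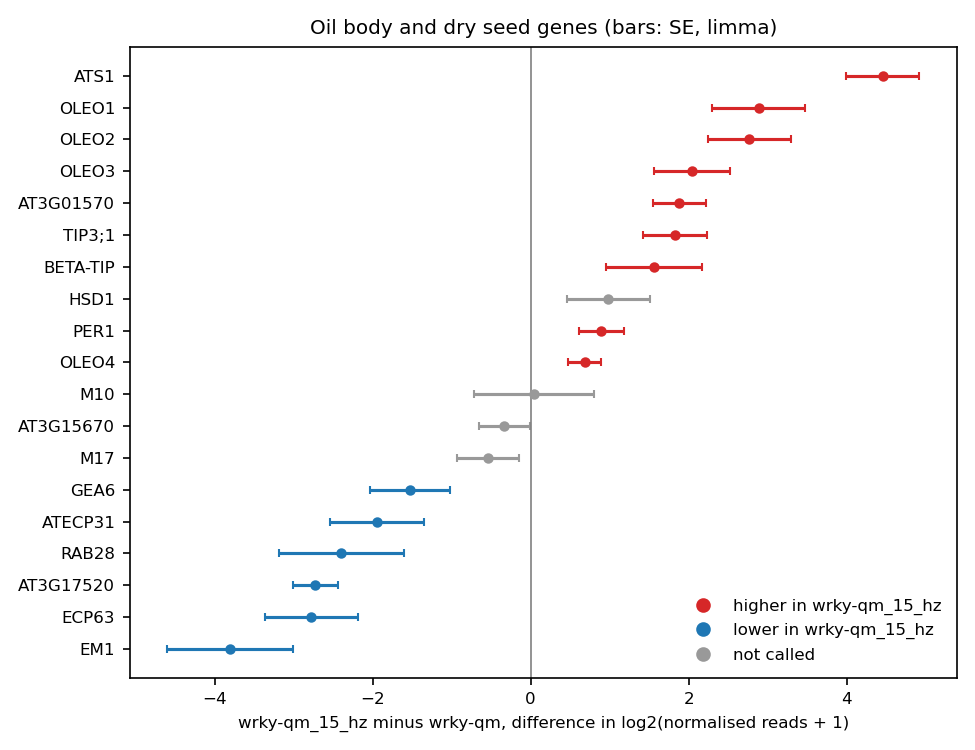
Difference in log2(normalised reads + 1) between wrky-qm_15_hz and wrky-qm for 19 genes of oil bodies and dry seed, with bars for the SE from limma. Oleosins and the caleosin ATS1 lie to the right of 0 and EM1, AT3G17520, GEA6, ECP63, ATECP31 and RAB28 to the left.

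Of 8 genes that mobilise reserves after germination, 3 rose in wrky-qm and 7 in wrky-qm_15_hz, with 6 in obe1-2 and none lower. Beside these, 15.5%, 26.5% and 29.2% of all genes were higher and 11.4%, 27.4% and 32.5% lower. PCK1, which feeds sugar synthesis from stored oil, rose by 2.61 ± 0.03 in wrky-qm_15_hz and 2.58 ± 0.03 in obe1-2 on the log2 scale (limma, adjusted p = 1.76e-22 and 1.01e-22). The 5 endosperm markers summed to 27.9 to 62.2 normalised reads in wild-type libraries, 30.6 to 40.8 in wrky-qm and 67.5 to 126 in wrky-qm_15_hz, with 106 to 126 in obe1-2, with RGE1 and FIS2 at or near 0. MEA, a Polycomb gene that is also an endosperm marker, was the highest of them in both of the latter groups, at 70.3 ± 19.9 in wrky-qm_15_hz and 101 ± 10.4 in obe1-2, and was called higher in both (3.95 ± 0.51 and 4.50 ± 0.51, limma, adjusted p = 8.12e-05 and 8.94e-06), while AGL62 was called lower in both. Of the seed coat markers BAN, TT16 and AT3G50990 had group means under 10 in every group, TT10 had 35.3 ± 19.7 in wrky-qm_15_hz and was not called, and MUM2, with group means of 6228 or more, rose by 0.65 ± 0.03 in wrky-qm_15_hz and 0.98 ± 0.03 in obe1-2 (limma, adjusted p = 9.60e-12 and 2.08e-15). The part of seed material in these results was not tested beyond these levels.

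The 6 genes outside the members whose centred log2 values followed those of the 9 members most closely over the 15 libraries were ATS1, AT2G05580, OLEO1, AT2G15010, AT1G65090 and AT4G08380. Their root mean square difference from the members' mean pattern was 0.990, 1.14, 1.18, 1.32, 1.37 and 1.39 on the log2 scale, among 25076 genes compared. The members themselves lay between 1.09 for SESA1 and 2.54 for SESA4, so ATS1 lay nearer to the mean pattern than any member. ATS1 was listed at 0 in wild type and had 10.3 ± 3.29 normalised reads in wrky-qm and 241 ± 21.4 in wrky-qm_15_hz, with 0.357 ± 0.607 in obe1-2.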

How the data were processed

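RNA was measured in 15 seedling libraries in 5 groups of 3. The unit of the deposited table was recorded as signal, since no source used here names it. The deposited values are never negative and not whole, in the form of counts that the authors moved to a common library size. Per the submitters' processing notes, the tools were bcl2fastq, HISAT2 and edgeR, and the build was TAIR10. Their versions and settings, the strandedness and the annotation are not given in the sources used here. Such adjusted values can alter the spread between replicates.

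Any value below 1e-06 was set to 0. With limma 3.58.1 in R 4.3.3, limma-trend was run on log2(value + 1) for 25085 genes over all 5 groups, and p-values were adjusted by Benjamini-Hochberg over all genes tested with a threshold of 0.05. Against wild type, the larger p-value of both sets was kept, where directions matched. A difference printed beside such a p-value is from the mean of both sets. Another 6167 genes were listed at 0 throughout. The procedure was tested on simulated data. Replicate numbers did not pair the libraries: correlations of same-numbered deviations lay between -0.115 and 0.0816 in 30 pairs. Alternatives were other pseudocounts, filters, scalings, wild-type sets and libraries left out. Loci were joined to RefSeq TAIR10.1, whose coordinates are used for gene positions and upstream sequence only, read with Biopython 1.88. The upstream stretch of CRU2 is not reported here. Figures used matplotlib 3.10.9. The members and gene lists were chosen with earlier results of these data known. Genes open to naming were all members, the mutated genes, up to 4 called genes of smallest p per list and mutant, all marker genes and the 6 nearest patterns. Not all of these are named in the text, and no fixed rule chose among them. The figure of oil body and dry seed genes shows its whole list. FUS3, LEC1, LEC2, EM1, AT1G54860, AT2G38610 and PSB28 were named after their values were seen.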

Additional observations from a re-analysis of the deposited data

How the results depend on the processing

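The numbers of members called kept within 1.5 times of those reported under every alternative run: 8 in wrky-qm, 9 in wrky-qm_15_hz, 9 between wrky-qm_15_hz and wrky-qm, 9 between obe1-2 and wrky-qm_15_hz, and 2 between the wild-type sets did not move at all, leaving out single libraries included. Numbers between 2 groups count either direction. The 9 between wrky-qm_15_hz and wrky-qm therefore still includes CRA1 and CRC where they turned lower, as given below. The number in obe1-2 was 4, with 3 to 4 when single libraries were left out, 3 in a fit on the compared groups alone and 6 against Col-0_1 alone. The number between obe1-2 and wrky-qm was 6 when libraries were left out, 5 after quantile normalisation and 7 with a pseudocount of 5. A fit with the replicate number as a block gave 8, 9 and 4 members higher in wrky-qm, wrky-qm_15_hz and obe1-2 and changed no member's call, although the numbers do not pair the libraries. For single members, 4 values turned direction: CRA1 in obe1-2 against Col-0_1 alone (0.91), CRC in obe1-2 against Col-0_2 alone (-2.69), and CRA1 (-3.22) and CRC (-4.11) between wrky-qm_15_hz and wrky-qm when each was taken relative to the wild-type set stored in the same form. Another 9 gained and 13 lost a call, mostly SESA4, which has at most 5.67 normalised reads in wild type. The cause was not tested. SESA4 in every group but wrky-qm_15_hz, and SESA1 in obe1-2, are at no more than 12.8 normalised reads.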
